A study of Mus musculus with 28 samples.

Results

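The 10 genes described here are immediate early genes: Fos, Fosb, Jun, Junb and Jund, which encode subunits of the transcription factor AP-1, the zinc finger factor gene Egr1, and Nr4a1, Atf3, Dusp1 and Ier2. They were chosen by name, with earlier measurements of their levels in these libraries in view, and all 10 of the 10 symbols were found among the 55413 gene IDs of the count tables. Their differences between groups are therefore given as a description and are not independent evidence for any group difference. The libraries come from T cells taken by magnetic sorting (CD3+ in the labels) from spleens of healthy male C57BL/6J mice aged 8 to 12 weeks, 1 library per labelled replicate, and the tables hold 1 bulk profile per library although the series describes single-cell profiles. In the rPS group (5 libraries), polymersomes of poly(ethylene glycol)-b-poly(propylene sulfide) loaded with rapamycin, an inhibitor of the kinase mTOR, were given under the skin at 1 mg rapamycin and 60 mg polymer per kg. In the PS group (4 libraries) mice received the same vesicles without drug, also under the skin, at 60 mg polymer per kg. In the R group (6 libraries) free rapamycin in 0.2% CMC was given under the skin at 1 mg per kg, and in the RO group (6 libraries, 5 of them used) the oral form Rapamune was given at 1 mg per kg. All of these mice had 1 dose a day for 11 days, 11 doses in all. The NT group (7 libraries) was untreated, so it controls neither for the injection nor for the CMC carrier.

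Immediate early genes are transcribed within minutes of a signal, by factors already present in the cell and without new protein synthesis, and most of their transcripts decay quickly. In T cells the receptor for antigen switches them on through the RAS-MAPK cascade and calcium, and AP-1 then binds together with NFAT at genes of T cell activation. Serum, growth factors and stress induce them as well. Dissociating and sorting cells is also known to induce them, so a level here is that of cells that had passed through filtering, red cell lysis and the magnetic sort. The sources used here do not give how long each spleen was handled.

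The used libraries held between 4286896 and 15696541 counts. Levels are given as CPM, counts divided by the library's total and multiplied by 1000000, not corrected for transcript length, so they are compared between libraries and never between genes. RO replicate 7 was left out because 3066 of 9927 well-expressed genes were listed at 0 in it, among them 4 of the 10 members. 6 of the 27 used libraries had Cd3e, a subunit of the T cell receptor complex, below 50 CPM, and Lyz2, a monocyte and macrophage gene, between 1865 and 3721 CPM. They are called T-cell-poor here and comprise R replicate 3, RO replicate 3 and 4 of the NT libraries (replicates 3, 4, 7 and 8). NT replicate 5 was next, with 76 CPM of Cd3e. Every group also carried B cell markers, with summed levels from 370 to 4599 CPM over the 27 libraries. T cell markers summed to between 168 CPM (R replicate 3) and 4512 CPM (NT replicate 6). In rPS replicate 5, B cell markers summed to 370 CPM and T cell markers to 3534 CPM. In rPS replicate 4 these sums were 4214 and 1485 CPM. Libraries not called T-cell-poor thus also differed in their B cell transcripts. Malat1, an abundant nuclear RNA, was at 0 in every one of the 7 NT libraries and in 0 of the remaining used libraries. Those remaining libraries had between 15693 CPM (in RO) and 27818 CPM (in PS). Whether the NT libraries were counted in another way was not tested. In the comparisons with NT, such a difference and the treatment cannot be told apart.

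The promoter sequences of 4 members are shown because these genes were examples of the 2 patterns described next. Fosb and Jun were high together in a subset of treated libraries, and Fos and Dusp1 were also high in the T-cell-poor NT libraries. Each sequence is the 250 bases before the listed start of the gene, in the direction of transcription, from RefSeq on GRCm38.p6. These coordinates are not on GRCm39, the build of the deposited counts per the submitters' processing notes. The stretches are chr7:19310046-19310295 (minus strand) for Fosb, chr4:95052223-95052472 (minus) for Jun, chr12:85473640-85473889 (plus) for Fos and chr17:26508473-26508722 (minus) for Dusp1. Capitals mark TGACG on the strand shown, the core of the CRE bound by CREB and ATF factors, the full site TGACGTCA in Dusp1, the related TGACATCA in Jun, and the EGR site GCGNGGGCG in Fosb.
Fosb: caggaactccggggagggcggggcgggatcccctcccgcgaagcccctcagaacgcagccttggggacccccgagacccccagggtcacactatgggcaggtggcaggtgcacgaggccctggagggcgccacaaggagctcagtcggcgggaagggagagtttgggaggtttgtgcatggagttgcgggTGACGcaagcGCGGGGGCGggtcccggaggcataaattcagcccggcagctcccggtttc
Jun: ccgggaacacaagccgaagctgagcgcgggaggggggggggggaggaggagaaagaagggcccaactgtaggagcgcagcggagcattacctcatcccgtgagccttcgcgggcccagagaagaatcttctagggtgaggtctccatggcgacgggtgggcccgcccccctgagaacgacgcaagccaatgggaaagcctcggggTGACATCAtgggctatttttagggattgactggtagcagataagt
Fos: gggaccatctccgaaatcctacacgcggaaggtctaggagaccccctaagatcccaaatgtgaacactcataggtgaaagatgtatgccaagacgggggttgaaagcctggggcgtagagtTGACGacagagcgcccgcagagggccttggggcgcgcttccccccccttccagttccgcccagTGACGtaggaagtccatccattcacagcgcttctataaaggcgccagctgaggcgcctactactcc
Dusp1: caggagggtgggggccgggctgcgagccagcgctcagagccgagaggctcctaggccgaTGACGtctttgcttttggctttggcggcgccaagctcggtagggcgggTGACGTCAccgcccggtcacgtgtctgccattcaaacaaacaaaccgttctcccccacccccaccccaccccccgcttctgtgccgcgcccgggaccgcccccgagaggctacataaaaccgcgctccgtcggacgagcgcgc

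The motifs were searched on both strands over windows of 300 bases, from 250 before to 50 after the start, in 8 members. Ier2 and Egr1 are named only. TGACG was present in 6 of the 8 windows (Fos, Fosb, Junb, Nr4a1, Atf3, Dusp1), against 20.8% of all 32851 windows, with 4 copies in Nr4a1, 3 in Dusp1 and 2 in Fos. 2 of the 3 copies in Dusp1 overlap within its TGACGTCA, a site held by 1.79% of all windows. TGACATCA was present in Jun and in 3.62% of all windows. GCGNGGGCG was present in Fosb and Nr4a1 and in 5.55% of all windows. The AP-1 site TGANTCA, held by 7.81% of all windows, and the CArG box bound by SRF, held by 1.63%, were in none of the 8 member windows, which says only that these letters are not in this stretch. The comparison windows were not matched for base composition.

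Fosb and Jun encode partners in AP-1 dimers, Fosb a FOS family protein that pairs with JUN proteins and Jun the founding JUN protein. Fosb was at 8.23, 5.77, 883, 129 and 288 CPM in the rPS libraries (replicates 1, 2, 4, 5 and 7) and at 405, 254, 321 and 227 CPM in the PS libraries (replicates 1, 3, 4 and 5). It had a median of 44.6 CPM (5.59 to 288) in the 6 R libraries, and 143, 18.7, 7 (replicate 4), 95.4 and 197 CPM in RO replicates 1, 3, 4, 5 and 6. The 7 NT libraries lay between 5.31 and 35.5 CPM with a median of 28.9 CPM. So Fosb was above every NT library in 3 of 5 rPS, 4 of 4 PS, 3 of 6 R and 3 of 5 RO libraries, and the remaining treated libraries lay within the NT range. The spread inside a treated group was wide: the highest rPS library was 153 times the lowest for Fosb, against 1.79 times in PS and 6.69 times in NT.

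Jun followed Fosb library by library. It was at 7.86, 17.5, 487, 298 and 245 CPM in the rPS libraries and at 261, 218, 367 and 221 CPM in the PS libraries. The R libraries had a median of 41 CPM (13.2 to 351), and the RO libraries 167, 35.4, 15.7, 147 and 208 CPM. In NT the median was 31.1 CPM (13 to 56.6). It exceeded all NT libraries in 3 of 5 rPS, 4 of 4 PS, 2 of 6 R (replicates 2 and 7) and 3 of 5 RO libraries (replicates 1, 5 and 6). The correlation of Fosb and Jun across the 27 libraries, as deviations from group means in log2 CPM, was r = 0.96, a description of libraries that also share depth and cell mixture.

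Egr1 encodes a zinc finger transcription factor induced by antigen receptor signalling in T cells. It was at 31.6, 28.5, 254, 135 and 163 CPM in rPS and at 162, 177, 320 and 167 CPM in PS. The R libraries had a median of 39.3 CPM (13 to 256), the RO libraries 108, 15.4, 38.3, 83.4 and 123 CPM, and the NT libraries a median of 23.7 CPM (14.4 to 77.6). The libraries above all NT libraries were rPS replicates 4, 5 and 7, all 4 PS libraries, R replicates 2 and 7 and RO replicates 1, 5 and 6, as for Jun. Within NT, the 4 T-cell-poor libraries were the lowest for Egr1 (14.4 to 23.7 CPM), below the other 3 (27.7 to 77.6 CPM).

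**Figure D1:**
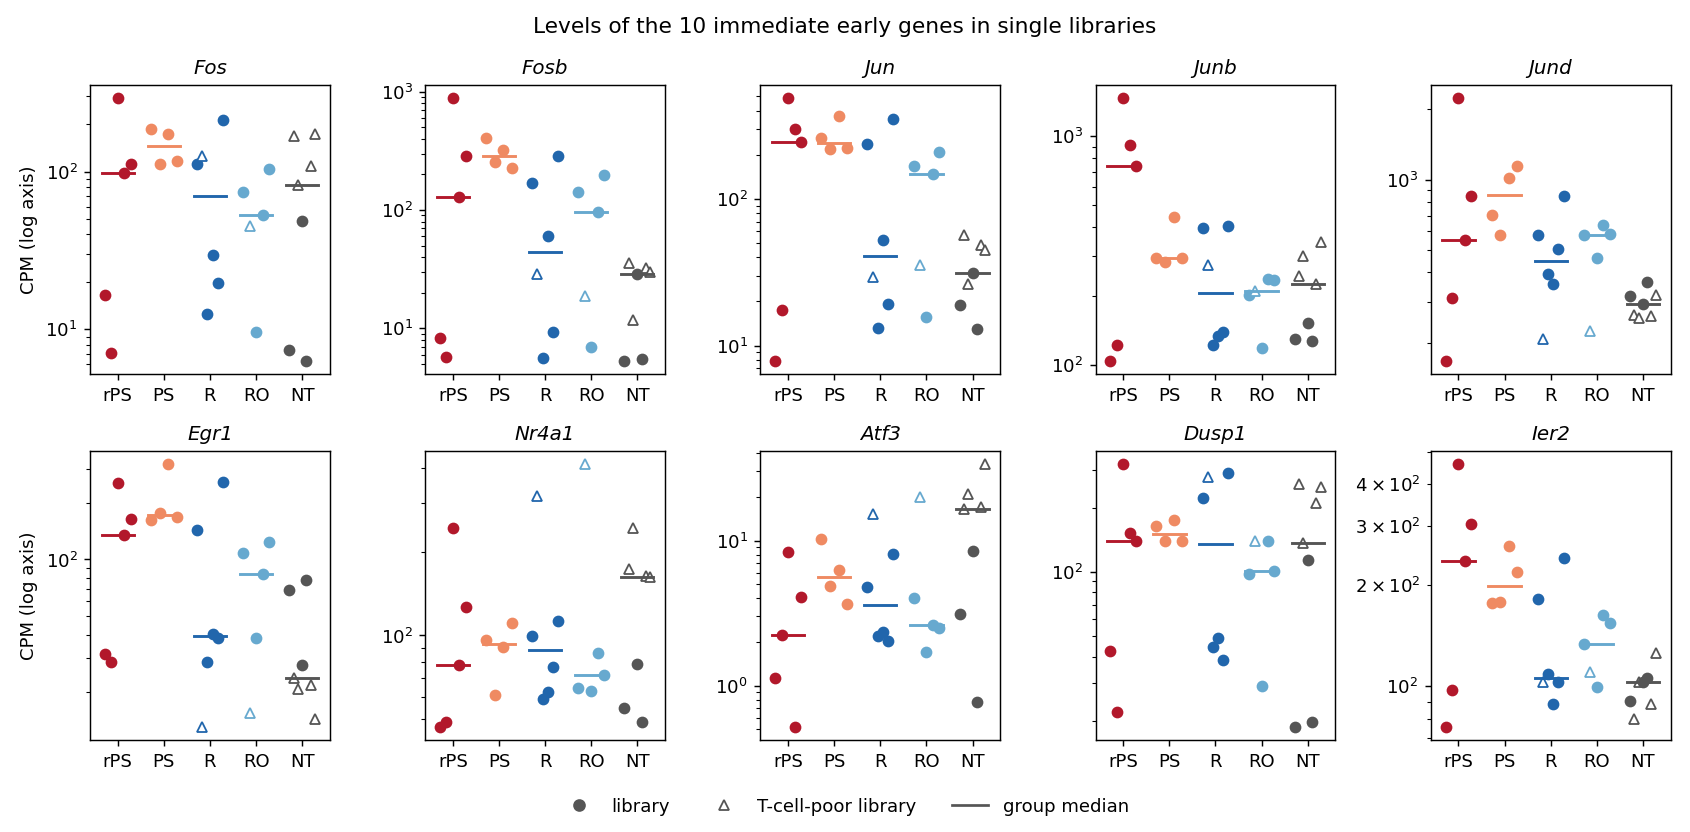
Level of each of the 10 genes in CPM (log axis) in every used library, by group: rPS, PS, R, RO and NT. Open triangles are the 6 T-cell-poor libraries and bars are group medians; for Fosb, Jun and Egr1 all 4 PS libraries lie above all 7 NT libraries, while rPS, R and RO each hold libraries above the NT range and libraries inside or below it.

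Junb and Jund encode the other JUN proteins, and Ier2 a nuclear protein induced with them. Junb was at 104, 122, 1469, 919 and 743 CPM in rPS and at 293, 283, 445 and 293 CPM in PS. The R median was 207 CPM (122 to 406), the RO values ran from 118 to 238 CPM, and the NT median was 226 CPM (127 to 344). For Junb the 3 high rPS libraries therefore stood above every library of every other group, while 3 of 4 PS libraries lay inside the NT range. Within NT, the 4 T-cell-poor libraries had 226 to 344 CPM of Junb and the other 3 had 127 to 153 CPM. All 4 PS libraries were above those other 3. Jund had 167, 311, 2238, 549 and 855 CPM in rPS and 707, 577, 1013 and 1144 CPM in PS, against 255 to 364 CPM in NT. Its R libraries had 207 to 847 CPM and its RO libraries 225 to 639 CPM, with 4 of 6 R and 4 of 5 RO libraries above all NT libraries. Ier2 ran from 75.7 to 460 CPM in rPS, from 177 to 262 CPM in PS, from 88.8 to 241 CPM in R, from 99.5 to 163 CPM in RO and from 80.2 to 126 CPM in NT. For both Jund and Ier2 all 4 PS libraries were above all 7 NT libraries, and rPS replicate 1 was below all 7.

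Fos, Dusp1, Nr4a1 and Atf3 had a second set of high libraries. Fos, the classical partner of Jun, was at 16.6, 7.1, 292, 98.1 and 111 CPM in rPS and at 185, 112, 174 and 116 CPM in PS. Its medians were 70.2 CPM in R (12.6 to 211), 53.1 CPM in RO (9.57 to 104) and 82 CPM in NT (6.31 to 174). In NT the 4 T-cell-poor libraries had 82 to 174 CPM of Fos and the other 3 had 6.31 to 48.4 CPM. Of the treated T-cell-poor libraries, R replicate 3 had 126 CPM and RO replicate 3 had 44.9 CPM, which is below the RO median. In bulk samples such as these, a different share of cells of a type and a different amount of RNA per cell cannot be told apart. Dusp1, a phosphatase that switches off MAP kinases, had 137 to 258 CPM in the T-cell-poor NT libraries and 18.7 to 114 CPM in the other 3. Dusp1 ran from 21.9 to 320 CPM in rPS, from 139 to 174 CPM in PS, from 38.7 to 291 CPM in R and from 29 to 139 CPM in RO. Fos and Dusp1 varied together within groups (r = 0.97 over 27 libraries), more closely than Fos and Egr1 (r = 0.25) in the same description.

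Nr4a1 encodes an orphan nuclear receptor induced by antigen receptor signals, and Atf3 a stress-induced factor that binds CRE-like sites. Nr4a1 was highest in the 2 treated T-cell-poor libraries, at 415 CPM in RO replicate 3 and 319 CPM in R replicate 3, and it had 163 to 244 CPM in the 4 T-cell-poor NT libraries, against 48.7 to 79.2 CPM in the other 3. Its rPS libraries had 46.8, 48.6, 245, 78.2 and 127 CPM and its PS libraries 96, 61.1, 90.7 and 111 CPM. Atf3 was low throughout, at 0.518 to 8.4 CPM in rPS, where the lowest value is 4 counts, and at 3.65 to 10.2 CPM in PS. The T-cell-poor libraries had 15.3 to 33.7 CPM of Atf3 and the other 21 libraries 0.518 to 10.2 CPM. Atf3 thus separated the T-cell-poor libraries from all others without overlap, and no treated group had a library above the NT maximum. How many other genes separate these libraries in the same way was not counted. Nr4a1 and Atf3 are also expressed by myeloid cells, and the part of the cell mixture in their levels was not tested beyond the values given here.

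The counts of Fosb relative to Fos in the same library set the patterns side by side. The ratio lay between 0.143 and 0.416 in the 6 T-cell-poor libraries and between 0.446 and 3.02 in the other 21. It was 0.494, 0.812, 3.02, 1.32 and 2.61 in the rPS libraries and 1.85 to 2.26 in PS, and 0.719, 0.598 and 0.879 in NT replicates 2, 5 and 6. Since the ratio is not corrected for transcript length, only its differences between libraries carry information.

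**Figure D2:**
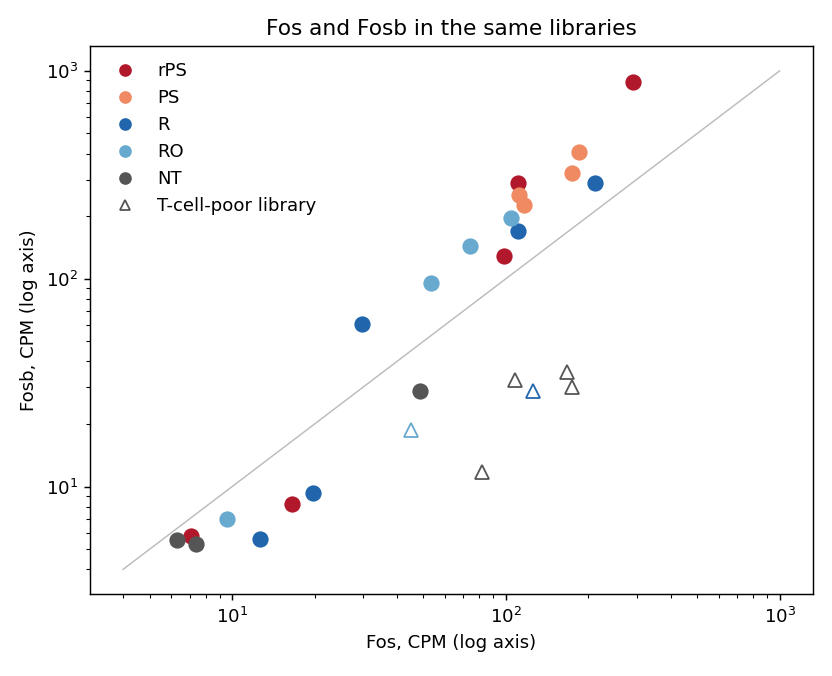
Fosb against Fos in CPM (both log axes), 1 point per used library, coloured by group, with the grey line marking equal values. The 6 T-cell-poor libraries (open triangles) had 44.9 to 174 CPM of Fos with 11.7 to 35.5 CPM of Fosb, whereas the other libraries lie along 1 band in which both genes are low or both are high.

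In rPS against NT, 5 of the 10 members were called higher and 0 lower (Benjamini-Hochberg adjusted p under 0.05 over all genes, edgeR quasi-likelihood test on all 5 groups), where 21.5% of the 17132 tested genes were called. Fosb was 3.61 ± 1.00 higher on the log2 scale (SE, adjusted p = 0.0154), Jun 2.59 ± 0.82 (adjusted p = 0.0283), Junb 1.57 ± 0.48 (adjusted p = 0.025), Jund 1.44 ± 0.41 (adjusted p = 0.0174) and Ier2 1.19 ± 0.31 (adjusted p = 0.0119). These are mean differences of 5 rPS libraries that do not lie together: replicates 4, 5 and 7 were above all NT libraries for these 5 genes, and replicates 1 and 2 were within or below the NT range. Egr1 had a log2 difference of 1.70 ± 0.64 (adjusted p = 0.0562) and Atf3 one of -2.25 ± 0.85 (adjusted p = 0.0583), while Fos (0.26), Dusp1 (-0.14) and Nr4a1 (-0.36) had smaller ones. The median of the 10 differences was 1.32, against -0.01 over all tested genes.

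The count of 5 moved with the libraries used, and so did the share of all genes called. Without rPS replicate 4 it was 1 (Atf3 alone, at -2.94) with 13.7% of all genes called, and without replicate 5 or replicate 7 it was 3, with 13.8% and 12.4% of all genes called. Without the 6 T-cell-poor libraries 0 members and 3.19% of all genes were called, and Fosb then differed by 4.45 (adjusted p = 0.11) and Junb by 2.33 (adjusted p = 0.0663) with 3 NT libraries left. DESeq2 called 7 members and 27.3% of all genes, adding Egr1 as higher (1.74, adjusted p = 0.0226) and Atf3 as lower (-2.19, adjusted p = 0.0178). rPS replicate 4 also had the steepest dependence of level on GC content, 0.72 log2 units per 10 percentage points against -0.24 to 0.07 in NT. The slopes of rPS replicates 1, 2, 5 and 7 were -0.34, -0.06, -0.15 and 0.31, and -0.34 was the lowest of all used libraries. Jund, Junb and Ier2 are GC-richer than 98 to 99.8% of 9907 expressed genes. Fosb, Jun, Egr1 and Nr4a1 are GC-richer than 82.1 to 89.8% of them, and Fos, Atf3 and Dusp1 than 64.3 to 74.6%. With the GC slope of each library as a covariate, 0 members and 15.8% of all genes were called, and the difference was 1.61 for Fosb and 0.30 for Jund. Among markers of other cells, all 9 of 9 neutrophil genes and 6 of 12 monocyte and macrophage genes were called lower in rPS, with summed levels of 5.57 to 56.9 CPM in rPS against 20.5 to 3068 CPM in NT for neutrophils, and 227 to 2505 CPM in rPS against 843 to 8869 CPM in NT for monocytes and macrophages. All 6 of 6 plasma cell genes and 4 of 5 NK cell genes were called lower as well, with summed levels of 195 to 1066 CPM in rPS against 1028 to 5535 CPM in NT for plasma cells, and 44.2 to 59.3 CPM in rPS against 51.3 to 133 CPM in NT for NK cells. No marker of these 4 lists was at 0 throughout a group, and 0 of 14 T cell markers were called. Of the B cell markers 1 of 8 was called, as lower, and of the red cell markers 0 of 6. With the monocyte and macrophage level as a covariate 0 members and 3.13% of all genes were called, and the difference was 2.72 for Fosb (adjusted p = 0.371).

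In PS against NT, 2 of 10 members were called, both higher, where 4.97% of tested genes were called. Fosb was 3.72 ± 1.04 higher (log2, adjusted p = 0.0455) and Egr1 2.39 ± 0.67 higher (adjusted p = 0.0461). Jun at 2.85 ± 0.85 (adjusted p = 0.0507), Jund at 1.43 ± 0.43 (adjusted p = 0.0511) and Ier2 at 0.95 ± 0.33 (adjusted p = 0.0686) missed the threshold. In all 5 of these genes every PS library was above every NT library, which held for 7.02% of tested genes. The other members overlapped NT: Fos differed by 0.66, Junb by 0.46, Dusp1 by -0.03, Nr4a1 by -0.71 and Atf3 by -1.34. The median over the 10 was 0.81, against -0.02 over all genes.

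The 2 calls in PS were close to the threshold. Leaving out any 1 of the 4 PS libraries or any 1 of NT replicates 3, 4, 7 and 8 gave 0 member calls, in fits that called 2 to 15 of all genes. Leaving out NT replicate 5 or NT replicate 6 gave 4 member calls, with 16.9% and 13.7% of all genes called, so the member counts moved with those over all genes. Without the 6 T-cell-poor libraries 0 members and 2 of all genes were called, with log2 differences of 4.55 for Fosb (adjusted p = 0.228) and 1.73 for Egr1 (adjusted p = 0.318). Monocyte and macrophage markers summed to 775 to 1169 CPM in PS against 843 to 8869 CPM in NT, with 3 of 12 called lower, and neutrophil markers to 29.6 to 51.8 CPM in PS against 20.5 to 3068 CPM in NT, with 4 of 9 called lower. Of the plasma cell markers 2 of 6, and of the NK cell markers 2 of 5, were called lower in PS.

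**Figure D3:**
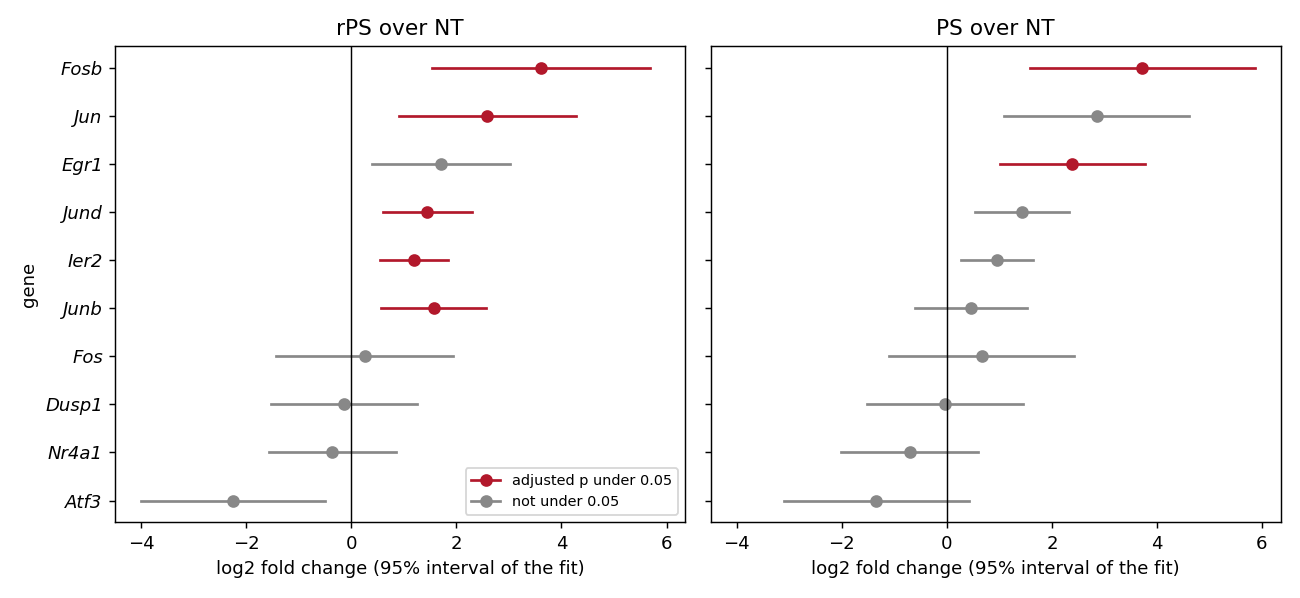
Log2 fold change of each member in rPS over NT (left) and PS over NT (right), with 95% intervals from the fit across all genes; red marks adjusted p under 0.05. In rPS the 5 called genes were Fosb, Jun, Jund, Ier2 and Junb, in PS they were Fosb and Egr1, and the interval of Fos spans 0 in both.

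Neither rapamycin group without vesicles had a member called against NT. In R against NT, 0 of 10 members were called by edgeR and 0 by DESeq2, where 0.665% of tested genes were called by edgeR. At an unadjusted p under 0.05 there were 2 members and 13.9% of all tested genes. Fosb differed by 2.11 ± 0.94 (adjusted p = 0.314), Jun by 1.73 ± 0.78 (adjusted p = 0.321) and Egr1 by 1.20 ± 0.61 (adjusted p = 0.384). In RO against NT, 0 of 10 were called by edgeR and 0 by DESeq2, where 0.0117% of genes were called by edgeR. At an unadjusted p under 0.05 there were 1 member and 12.7% of all tested genes. Fosb differed by 2.03 ± 0.96 (adjusted p = 0.387), Jun by 1.65 ± 0.81 (adjusted p = 0.394) and Egr1 by 0.92 ± 0.64 (adjusted p = 0.54). In both groups these means cover libraries in the NT range and libraries well above it, so the intervals are wide, from 0.18 to 4.04 for Fosb in R and from 0.04 to 4.02 in RO. The 4 comparisons with NT share the same 7 NT libraries.

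Between treated groups no member was called. In rPS against PS, 0 of 10 were called by edgeR (0.0817% of genes called) and 0 by DESeq2. At an unadjusted p under 0.05 there were 0 members and 4.97% of all tested genes. Fosb differed by -0.11 with a 95% interval from -2.36 to 2.13, Egr1 by -0.68 (-2.18 to 0.82) and Junb by 1.11 (-0.07 to 2.29), so the data leave room for differences of several-fold either way for Fosb. In rPS against R, 0 were called by either tool (0.0117% of genes called by edgeR), and Junb differed by 1.43 ± 0.50 (adjusted p = 0.342). At an unadjusted p under 0.05 there were 2 members and 11% of all tested genes. In rPS against RO, 0 were called by either tool (0.0175% of genes called by edgeR), and Junb differed by 1.76 ± 0.54 (adjusted p = 0.327). At an unadjusted p under 0.05 there were 2 members and 8.11% of all tested genes. In R against RO, 0 were called by either tool (0% of genes called by edgeR), and the 10 differences had a median of 0.09. At an unadjusted p under 0.05 there were 0 members and 2.94% of all tested genes.

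Fosb, Jun, Jund, Egr1 and Ier2 were mostly above the NT range in the same treated libraries, with exceptions. Jund was the only member above every NT library in R replicates 4 (395 CPM) and 6 (503 CPM) and RO replicate 4 (462 CPM). Fosb was the only one in R replicate 5 (60.3 CPM). In 12 of the 20 used libraries from treated mice, at least 5 of the 10 members exceeded every NT library, and in the other 8 at most 2 did. The 12 were rPS replicates 4, 5 and 7, all 4 PS libraries, R replicates 2 and 7, and RO replicates 1, 5 and 6. In rPS replicate 4 it was 9 of 10 members, all except Atf3, and in R replicate 7 it was 8. In rPS replicate 1, by contrast, 5 members (Jun, Junb, Jund, Nr4a1 and Ier2) were below every NT library. The summed level of the 10 genes ran from 502 to 6657 CPM in rPS, from 2004 to 3173 CPM in PS, from 791 to 3013 CPM in R, from 843 to 1783 CPM in RO and from 716 to 1502 CPM in NT. These libraries were picked out by the same values, so the split is a description and was not tested. The share of all genes outside the NT range in each single library was not taken. The member counts per library are therefore not read as particular to these genes.

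**Figure D4:**
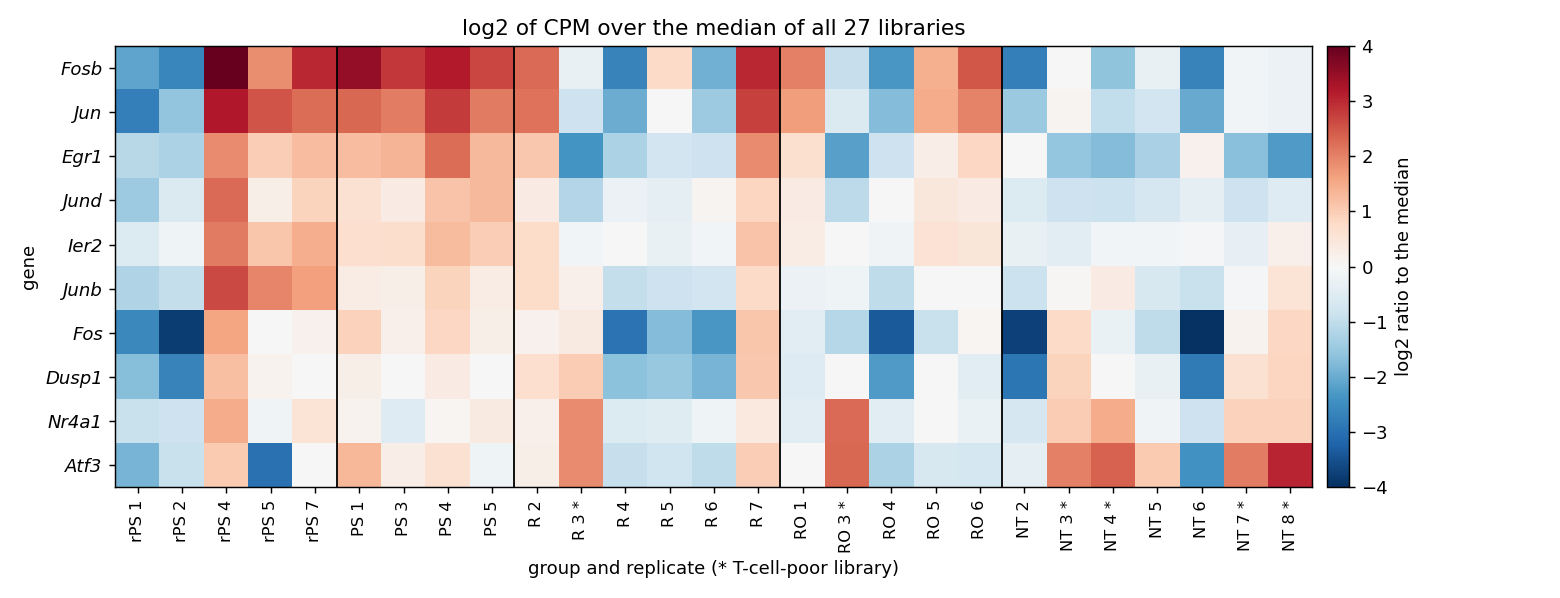
Heat map of log2 CPM over each gene's median across the 27 used libraries (colour scale from -4 to 4), genes in rows and libraries in columns by group, rPS to NT, with asterisks on the T-cell-poor libraries. Fosb, Jun and Egr1 are red together in rPS 4, 5 and 7, PS 1, 3, 4 and 5, R 2 and 7, and RO 1, 5 and 6, and Nr4a1 and Atf3 are red in the 6 T-cell-poor libraries.

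Of the other early genes, about the background share was called in rPS against NT when both directions are counted. Among 25 other immediate early genes, 6 were called higher and 0 lower, or 24% against 21.5% of all genes in either direction. Over all genes 1814 were called higher and 1874 lower, so the calls of this list were more 1-sided. The median of the 25 differences was 0.30, and 19 were positive. The 6 were Ppp1r15a (2.19 ± 0.49, adjusted p = 0.00472), a phosphatase subunit of the stress response, Dusp2 (2.13 ± 0.48, adjusted p = 0.00471), a nuclear MAP kinase phosphatase, Myc (1.05 ± 0.33, adjusted p = 0.0273), Ier5 (0.97 ± 0.32), Gadd45b and Dusp4. Ppp1r15a was at 32.3 to 367 CPM in rPS, 96.4 to 169 CPM in PS and 27.5 to 44.7 CPM in NT. It was the gene of this list called in PS (1.90), which is 4% of the list against 4.97% of all genes. Of 12 other AP-1 subunits tested, 1 was called, the small MAF gene Maff (1.48 ± 0.42, adjusted p = 0.0175), and the median was -0.29. Of 6 other EGR and NR4A genes and EGR corepressors tested, 1 was called, Nr4a3 (1.02 ± 0.36, adjusted p = 0.0425), a paralogue of Nr4a1. Egr2, a paralogue of Egr1, was at 8.1 to 13.3 CPM in rPS, 16.7 to 34 CPM in PS and 7.79 to 17.2 CPM in NT.

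For genes upstream of the early genes, 4 of 21 (19%) were called in rPS against NT, close to the 21.5% of all genes. Of the 21 genes of the RAS-MAPK and SRF route tested, 1 was called higher, Mrtfa (0.49 ± 0.16), an SRF coactivator, and 3 lower. Mapk3, the gene of the kinase ERK1, was among those called lower (-1.09 ± 0.34, adjusted p = 0.0252). In PS against NT, 0 of the 21 were called by edgeR, where 4.97% of all genes were called. At an unadjusted p under 0.05 there were 5 of the 21, against 31.7% of all tested genes. Of 12 heat shock and unfolded protein genes tested, 1 was called in rPS and 1 in PS. In both cases it was Hsf1, the heat shock factor gene, at 0.52 in rPS and 0.55 in PS. That is 8.33% of the list, against 21.5% of all genes in rPS and 4.97% in PS. The heat shock genes Hspa1a and Hspa1b, which cell handling also induces, were not called in rPS, with differences of -0.48 ± 1.06 and 0.52 ± 1.03. Hspa1b was at 0.187, 0.555, 17.7, 13.9 and 3.12 CPM in rPS replicates 1, 2, 4, 5 and 7. Hspa1a was at 0, 0.222, 5.6, 2.98 and 2.14 CPM in the same order. Both were higher in replicates 4, 5 and 7, where the early genes were high, than in replicates 1 and 2. The values of replicates 1 and 2 lie at or near the floor of 3 counts, 0.191 to 0.7 CPM across the libraries. In PS, where the early genes were high in all 4 libraries, Hspa1b had 6.71, 0.169, 0.766 and 3.19 CPM. RO replicates 1, 5 and 6, also high for the early genes, had 0.424, 4.82 and 0.483 CPM of Hspa1b. RO replicates 3 and 4 had 9.96 and 0.428 CPM. In R, replicates 2 and 7 had 2.47 and 8.86 CPM, and the other libraries 0.584 to 3.68 CPM. In NT Hspa1b had 0.0637 to 17.9 CPM. The part of cell handling in these levels was not tested.

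Outside the 10 genes, the pattern most like theirs was that of Zfp36, an RNA-binding protein that promotes decay of short-lived transcripts. Its within-group deviation correlated with the mean deviation of 9 members (Atf3 was under the level minimum of 10 CPM) at r = 0.96 over 27 libraries, the highest of 9898 genes. Ptp4a1 (r = 0.93), a phosphatase, Irs2 (r = 0.91), an insulin receptor substrate, Plk2 (r = 0.90), a kinase, and 4931440P22Rik (r = 0.90) followed. Over the 21 libraries that were not T-cell-poor, Zfp36 (r = 0.98), Irs2 (r = 0.97) and Plk2 (r = 0.96) held the first 3 ranks, while Ptp4a1 ranked 8 and 4931440P22Rik ranked 16. Zfp36 was at 94.8 to 879 CPM in rPS, 342 to 492 CPM in PS, 126 to 441 CPM in R, 117 to 340 CPM in RO and 175 to 249 CPM in NT.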

How the data were processed

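The authors deposited 1 table of estimated counts per Ensembl gene for each library, not normalized, from reads processed with the tools named next. Between 21.3% and 25.0% of the values above 0 were not whole, and they were rounded before use. Trimmomatic 0.39, STAR 2.7.5a, Cufflinks 2.1.1 and GRCm39 are named in the submitters' processing notes; the counting tool, its annotation and its use of strand are stated by none of these sources. Symbols came from GENCODE M21 and matched 52082 of 55413 IDs (94.0%), with the version dropped.

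CPM are counts over the library's total, times 1000000. Low-count genes were removed with edgeR's filterByExpr by group, libraries were scaled by TMM, and 1 quasi-likelihood model with robust dispersion was fitted to 27 libraries in 5 groups (edgeR 4.0.16, R 4.3.3), testing 17132 genes. A gene was called at a Benjamini-Hochberg adjusted p under 0.05 over all of them. Standard errors are the log2 fold change divided by the root of F. The depth, 4286896 to 15696541 counts, puts a floor of 3 counts at 0.191 to 0.7 CPM, which covers counting error only. Replicates are labelled as separate samples and nothing says which mice or days they share, so p-values measure the spread between these samples. No 2 libraries of a group agreed within sampling noise. Likeness used log2 CPM with a prior count of 2. The method was tested on simulated counts.

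Named genes were the 10 members, up to 4 called genes with the smallest p of each other list per comparison, Cd3e, Lyz2, Hspa1a and Hspa1b, and the 5 genes most like the members; other genes shown were chosen after their values were seen, and some called genes of the lists are not reported here. The members and all lists were chosen with earlier results of these data known. Alternatives were DESeq2 1.42.0, its size factors, no low-count filter, the compared groups only, a replicate block, all 28 libraries, the T-cell-poor libraries left out, a monocyte and macrophage covariate, each library left out, and, added after seeing the data, a GC slope covariate.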

Additional observations from a re-analysis of the deposited data

Results flagged for a closer look

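In groups of 4 to 7 libraries, 5 of 50 member and group combinations had a single library far from the others (a gap to the nearest library that is a large part of the group's range). The limit used gives about 1 in 20 for independent, normally distributed values. These are CPM on their raw scale and the members share libraries, so that rate need not hold here. PS replicate 4 stood above the other 3 PS libraries for Junb (445 CPM) and Egr1 (320 CPM). R replicate 3 stood apart for Nr4a1 (319 CPM), and RO replicate 3 for Nr4a1 (415 CPM) and Atf3 (19.9 CPM). Both of these are T-cell-poor libraries.

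RO replicate 7, used in no comparison of the report, had 754 CPM of Jund against at most 364 CPM in NT, and 168 CPM of Ier2 against at most 126 CPM in NT. Its Fosb (20.2 CPM) and Jun (39.1 CPM) were within the NT range, and Fos, Egr1, Nr4a1 and Dusp1 were listed at 0. Since 3066 well-expressed genes are also at 0 there, its total covers fewer genes than the other totals do.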

How the results depend on the processing

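Of 8 comparisons, 6 had 0 members called under every setting run. In the other 2, the member count moved, and the share of all genes called (in brackets) moved as well. In rPS against NT (5 members, 21.5% of genes) the counts were 7 with DESeq2 (27.3%), 3 with no low-count filter (7.73%), 1 with the compared groups only (7.07%), 1 with a replicate block (10.6%), 0 without the 6 T-cell-poor libraries (3.19%), 0 with the monocyte and macrophage covariate (3.13%), 0 with the GC slope covariate (15.8%), and 1 to 7 with 1 library left out (12.4% to 27.3%). In PS against NT (2 members, 4.97% of genes) they were 5 with DESeq2 (17.2%), 5 with the compared groups only (12.3%), 0 with no filter (0.137%), 0 with the block (0.0175%), 0 with RO replicate 7 (0.0291%), 0 without the T-cell-poor libraries (0.0118%), 0 with the monocyte covariate (0.0175%), 0 with the GC covariate (0.508%), and 0 to 4 with 1 library left out (0.0114% to 16.9%). The cause was not tested.

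Replicate numbers gave no steady pairing of the libraries (38 same-number pairs, correlations from -0.46 to 0.86, median 0.04, 16 over 0.1). The median of the 251 other pairs was -0.01. Replicate 3 of R, RO and NT was T-cell-poor in each case, and whether some same-number libraries share a batch was not tested. Among log2 differences whose sign turned, none was called in the main comparison. In rPS against NT, Dusp1 was 0.27 with the block, 1.53 without the T-cell-poor libraries and 0.76 with the monocyte covariate, Nr4a1 0.88 and 1.30 under the last 2 of these, Atf3 (-2.25 in the main comparison) 0.12 with the monocyte covariate, and Fos -0.71 with the GC covariate. In PS against NT, Dusp1 was 0.50, 1.63 and 0.68 under the same 3 settings, Nr4a1 0.52 and 0.64 and Atf3 0.65 and 0.97 under the last 2. With 1 library left out, Dusp1 lay between -0.76 and 0.14 in rPS and between -0.23 and 0.17 in PS, Fos in rPS between -0.61 and 0.57, and Fosb in rPS against PS between -1.45 and 0.22.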

Other observations

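The bracketed code in each library's title holds a number after the group letters, which the labels do not explain. Among treated libraries, the 9 numbered 7 or above (rPS 5 and 7, PS 1, 4 and 5, R 2 and 7, RO 1 and 6) all had at least 5 members above every NT library, and the 7 numbered 5 or below (rPS 1 and 2, R 3, 4 and 5, RO 3 and 4) had at most 2. The 4 libraries numbered 6 were rPS 4, PS 3, R 6 and RO 5, and R 6 was the one with a single member above NT. The NT libraries carried numbers from 1 to 12, and Fosb was at most 35.5 CPM in all of them. RO replicate 7, numbered 9 and not used, had Fosb and Jun within the NT range. The PS group has no library numbered under 6. This order was noticed after the values were seen and was not tested, and no share of all genes per library stands beside these counts.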
